A study of Mus musculus with 6 samples.

Results

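The genes of fatty acid oxidation, fatty acid synthesis and the PPAR transcription factors were examined in CD11b-selected cells of MCT2 CO and MCT2 KO tumors. They were 38 of the 25701 genes in the count table, taken by gene symbol, and all 38 were found. By role they comprised 6 transcriptional regulators, 3 genes of carnitine import, 10 beta-oxidation enzymes, 3 genes of electron transfer, 4 long-chain acyl-CoA synthetases, 3 enzymes of de novo synthesis, 7 desaturases and elongases, and 2 enzymes of triglyceride synthesis. Carnitine import, beta-oxidation and electron transfer together are called the 16 oxidation genes, and de novo synthesis with desaturation and elongation the 10 synthesis genes.

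The cells, which the study calls macrophages, were purified by positive selection for CD11b, a surface integrin of myeloid cells. They came from TC1 tumors grown under the skin of the flank. TC1 is a mouse epithelial lung tumor cell line, and the tumors were taken 24 days after injection. All mice carried MCT2 loxP/loxP; Cre+ on a C57BL/6 background and were 8 weeks old at the start. The 3 MCT2 KO mice had received tamoxifen and the 3 MCT2 CO mice vehicle, so that tamoxifen itself and the loss of MCT2 cannot be told apart. The study reports larger tumors in its MCT2 KO mice at the endpoint, and tumor size cannot be told apart from these either. The Cre (mCre-Tg) is inducible and the deletion systemic by the study's account, and so not restricted to macrophages; its promoter is not named there. The TC1 cells were injected and carry their own *Slc16a7*. The tissue is entered as lung in the sample labels, although the cells came from the flank.

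The libraries held between 24863611 and 31713704 counts. *Slc16a7*, which encodes MCT2, was at 16.04, 11.04 and 11.2 CPM in MCT2 CO and 8.22, 4.97 and 5.34 CPM in MCT2 KO, with a log2 fold change of -1.05 (SE 0.24) and an adjusted p of 0.370 by edgeR's quasi-likelihood test. CPM are counts relative to the library total after TMM scaling, and a log2 fold change is that of MCT2 KO against MCT2 CO throughout. Of 12 macrophage markers, 11 were expressed at 115 CPM or more in every library, while *Itgam*, which encodes CD11b, had 1 count over all libraries. Of its exon bases, 99.1% lie inside the span of *Gm49368*, so that its reads may have been lost. This was not tested, and its level was not read from this count. Principal components were taken over the 500 most variable genes. On the first axis (39.7% of the variance) the groups did not overlap, and MCT2 CO replicate 3 stood apart. MCT2 KO replicate 2 stood apart on the second axis (33.2%). For the members, results are therefore also given without these 2 libraries where they differ.

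Long-chain fatty acids are activated to acyl-CoA by the ACSL enzymes. For oxidation they are carried into mitochondria as carnitine esters by CPT1, the carnitine-acylcarnitine carrier and CPT2, shortened step by step by beta-oxidation, and their electrons are passed by electron transfer flavoprotein to the respiratory chain. Synthesis runs the other way in the cytosol, from citrate through acetyl-CoA and malonyl-CoA to palmitate, which is then elongated and desaturated. The PPARs are nuclear receptors that bind fatty acids, pair with RXR and switch on many genes of oxidation and lipid storage. In macrophages, oxidation of fatty acids is commonly linked with alternative activation and synthesis with inflammatory activation.

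The main difference lay between the arms of the pathway. All 15 oxidation genes tested had a log2 fold change above 0, from 0.027 (*Eci1*) to 0.34 (*Cpt1a*), with a median of 0.19. The 10 synthesis genes lay on both sides, 4 above 0 and 6 below, from -0.25 (*Elovl6*) to 0.10 (*Acly*), with a median of -0.032. Over all genes tested the median was 0.00037 and 50.1% lay above 0, with the 75th percentile at 0.12 and the 90th at 0.25. The oxidation genes thus differed by small amounts, the largest of them 26.5% between the group means. Genes of a shared pathway can vary together across mice, so that the 15 are not independent observations.

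Across all 13485 genes tested, 0 (0.0%) passed both an adjusted p threshold of 0.05 and a log2 fold change of 0.58 in either direction, which together make a call, 509 had an unadjusted p under 0.05 with higher levels in MCT2 KO (3.77%), and 755 had one with lower levels (5.6%). By edgeR, 0 of the 37 members tested were called, and 5 had an unadjusted p under 0.05, all of them higher in MCT2 KO and all of them oxidation genes. The smallest adjusted p of a member was 0.429 (*Cpt1a*), and DESeq2, which called 83 of 14202 genes (0.584%), called 0 members. Among all genes tested, 7.07% had all 3 MCT2 KO values above all 3 MCT2 CO values and 8.77% had them below. Of the members, 8 of 37 were above and 1 of 37 below, and these 8 were again all oxidation genes. The members were selected with earlier results of these data known, and the counts are a description. The plot of fold changes by role shows the intervals of all 37 members.

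**Figure D1:**
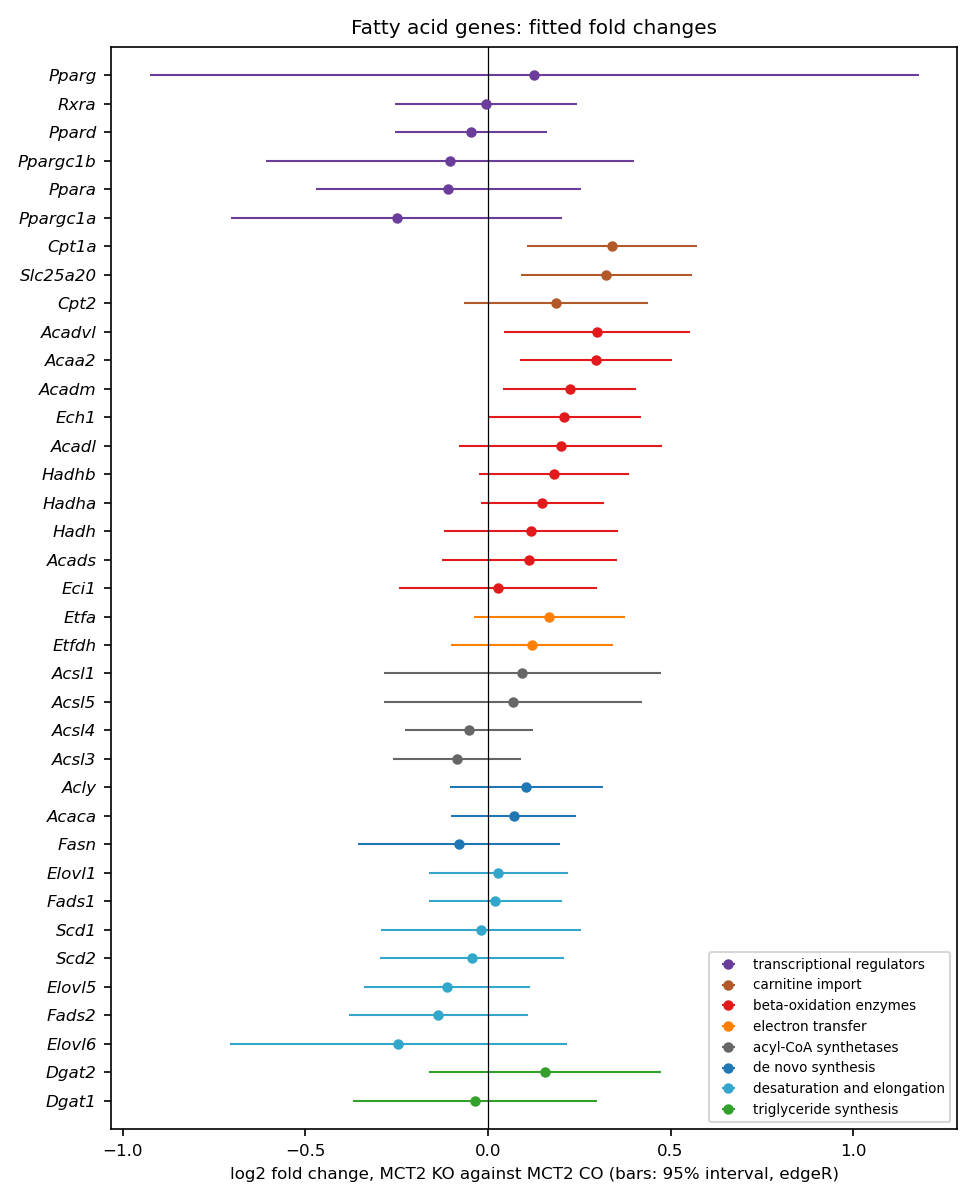
Fitted log2 fold change (x axis, MCT2 KO against MCT2 CO) of the 37 members tested, 1 row per gene, coloured by role, with the 95% interval of edgeR as bars. The 15 oxidation genes lie to the right of 0 and 5 of their intervals do not reach it, whereas every interval of the other roles crosses 0.

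Carnitine import had the highest median log2 fold change of the roles of the members, 0.32. *Cpt1a* (ENSMUSG00000024900, chromosome 19, 3322334 to 3385733, plus strand; GRCm38 here and below) encodes the outer-membrane enzyme that commits long-chain fatty acids to oxidation. It was at 93.96, 92.3 and 76.4 CPM in MCT2 CO mice 1 to 3 and 110.02, 105 and 117 CPM in MCT2 KO mice 1 to 3. All MCT2 KO samples were above all MCT2 CO samples, of which replicate 3 was the lowest. The means were 87.6 ± 9.68 CPM in MCT2 CO and 111 ± 6.21 CPM in MCT2 KO (SD, n = 3), and the log2 fold change was 0.34 (SE 0.10), with an interval from 0.11 to 0.57, an unadjusted p of 0.00978 and an adjusted p of 0.429 by edgeR.

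*Slc25a20* (ENSMUSG00000032602, chromosome 9, 108662088 to 108684641, plus strand), the carnitine-acylcarnitine carrier of the inner membrane, was at 30.3, 32.7 and 29.01 CPM in MCT2 CO mice 1 to 3 and 40.8, 34.01 and 40.4 CPM in MCT2 KO mice 1 to 3. MCT2 KO replicate 2 was the lowest of its group and lay closest to the MCT2 CO samples, but the groups did not overlap. The log2 fold change was 0.32 (SE 0.10), with an unadjusted p of 0.013 and an adjusted p of 0.433 by edgeR. *Cpt2* (ENSMUSG00000028607, chromosome 4, 107903981 to 107923610, minus strand), which turns acyl-carnitine back into acyl-CoA in the matrix, was expressed at a lower level, at 12.8, 13.2 and 12.3 CPM in MCT2 CO and 13.5, 15.9 and 14.2 CPM in MCT2 KO. Its groups did not overlap either, with a log2 fold change of 0.19 (SE 0.11) and an unadjusted p of 0.127. For each of these genes the exact permutation test of 3 mice against 3 gave p = 0.1 (two-sided), the smallest it allows.

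The first step of each round of beta-oxidation is made by acyl-CoA dehydrogenases that differ in the chain length they take. *Acadvl* (ENSMUSG00000018574, chromosome 11, 70010183 to 70015411, minus strand), for very long chains, was at 33.3, 37.04 and 28.4 CPM in MCT2 CO mice 1 to 3 and 38.7, 42.3 and 40.2 CPM in MCT2 KO mice 1 to 3. Its log2 fold change was 0.30 (SE 0.11), with an unadjusted p of 0.027 and an adjusted p of 0.491 by edgeR. Of its exon bases, 46.5% lie inside the span of the neighbouring gene *Dvl2*, and 26.9% of the 50-base words in its transcripts occur in other genes. Part of its reads may therefore not be in the count. *Acadm* (ENSMUSG00000062908, chromosome 3, 153922357 to 153944632, minus strand), for medium chains, was at 39.9, 38.5 and 39.5 CPM in MCT2 CO mice 1 to 3 and 48.3, 45.9 and 43.5 CPM in MCT2 KO mice 1 to 3. The MCT2 CO values of *Acadm* lay close together (SD 0.692 CPM, n = 3) and all MCT2 KO values were above them, with a log2 fold change of 0.22 (SE 0.079), an unadjusted p of 0.0223 and an adjusted p of 0.480 by edgeR.

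The other dehydrogenases overlapped between the groups. *Acadl*, for long chains, was the most abundant oxidation gene per length of exon, and was at 100.1, 103 and 84.8 CPM in MCT2 CO and 93.3, 119.7 and 117 CPM in MCT2 KO. MCT2 KO replicate 1 lay among the MCT2 CO samples and the other two MCT2 KO samples above them, with a log2 fold change of 0.20 (SE 0.12). *Acads*, for short chains, had a log2 fold change of 0.11 (SE 0.10) with an interval from -0.13 to 0.35.

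The later steps, down to the last, are made for long chains by the mitochondrial trifunctional protein. Its alpha and beta subunits are encoded by *Hadha* (ENSMUSG00000025745, chromosome 5, 30118304 to 30155162, minus strand) and *Hadhb* (ENSMUSG00000059447, chromosome 5, 30155248 to 30184593, plus strand), neighbours that point away from each other. *Hadha* was at 106, 101 and 101 CPM in MCT2 CO and 109.9, 118 and 113 CPM in MCT2 KO, and *Hadhb* at 26.4, 27.7 and 26.3 CPM in MCT2 CO and 29.8, 32.7 and 28.5 CPM in MCT2 KO. In both genes every MCT2 KO sample was above every MCT2 CO sample, and MCT2 KO replicate 2 was the highest. The log2 fold changes were 0.15 (SE 0.073) for *Hadha* and 0.18 (SE 0.089) for *Hadhb*, with unadjusted p values of 0.0775 and 0.0781, both above 0.05. The level of *Hadhb* per exon length (4.33 CPM per kb) was below that of *Hadha* (12.4 CPM per kb), and 19.7% of the 50-base words in its transcripts also occur in other genes, mainly the predicted genes *Gm13910* and *Gm9108*. *Hadh*, which takes shorter chains at the third step, had a log2 fold change of 0.12 (SE 0.10), and its groups overlapped.

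The last step, thiolysis, is made for shorter chains by the product of *Acaa2* (ENSMUSG00000036880), a mitochondrial 3-ketoacyl-CoA thiolase. It was at 22.3, 20.9 and 19.7 CPM in MCT2 CO mice 1 to 3 and 26.6, 25.6 and 25.03 CPM in MCT2 KO mice 1 to 3. The means were 20.96 ± 1.30 CPM in MCT2 CO and 25.7 ± 0.813 CPM in MCT2 KO (SD, n = 3), and all MCT2 KO values were above all MCT2 CO values. The log2 fold change was 0.30 (SE 0.090), with an unadjusted p of 0.0113 and an adjusted p of 0.430 by edgeR. Among the members, the isomerases that prepare unsaturated fatty acids for the cycle, *Ech1* and *Eci1*, did not separate the groups. *Ech1* was at 46.9, 49.6 and 54.8 CPM in MCT2 CO and 59.998, 54.5 and 60.3 CPM in MCT2 KO, with a log2 fold change of 0.21 (SE 0.091) and an unadjusted p of 0.0511. *Eci1* was nearest to 0 of the oxidation genes, with a log2 fold change of 0.027 (SE 0.12).

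**Figure D2:**
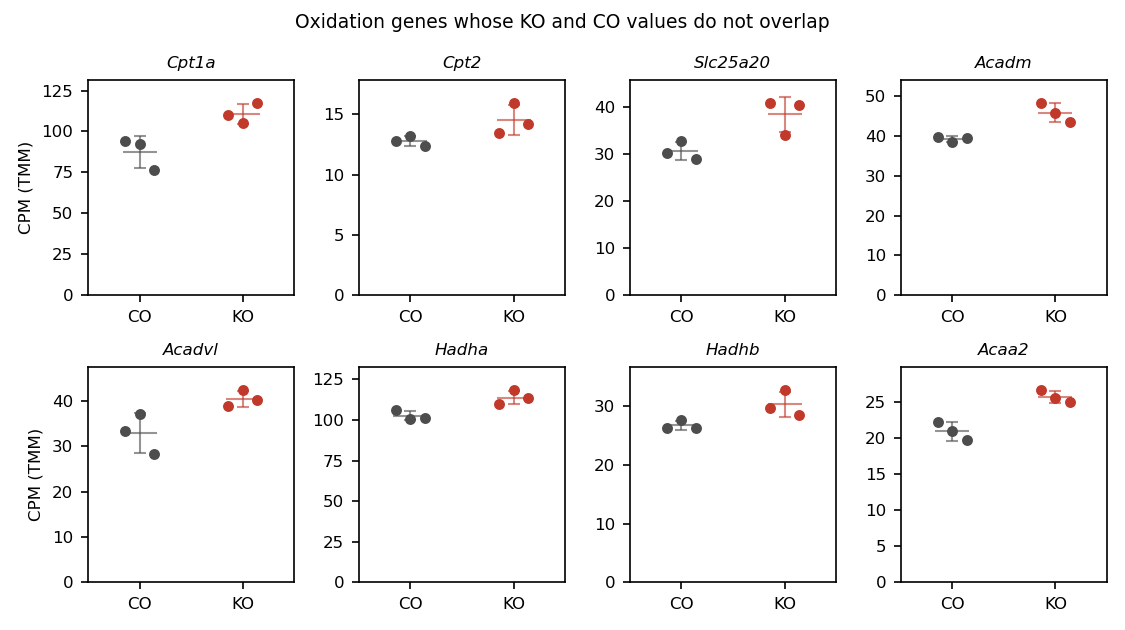
CPM (y axis, from 0) of the 8 oxidation genes whose groups do not overlap, 1 panel per gene, with 3 MCT2 CO (grey) and 3 MCT2 KO (red) mice as points and the mean ± SD as bars. All 3 MCT2 KO points lie above the MCT2 CO points in each panel, and the gap is narrow in *Cpt2*, *Hadha*, *Hadhb* and *Slc25a20*.

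Electron transfer flavoprotein, the acceptor of the dehydrogenases, is made of the products of *Etfa* and *Etfb*, and *Etfdh* encodes the enzyme that passes its electrons to ubiquinone. *Etfa* was at 73.2, 67.3 and 64.9 CPM in MCT2 CO and 71.6, 83.3 and 75.9 CPM in MCT2 KO, with a log2 fold change of 0.17 (SE 0.090). Its groups overlapped only in MCT2 CO replicate 1 and MCT2 KO replicate 1. *Etfdh* was at 36.1, 35.3 and 35.6 CPM in MCT2 CO and 39.8, 42.2 and 34.3 CPM in MCT2 KO, with MCT2 KO replicate 3 below the MCT2 CO samples and a log2 fold change of 0.12 (SE 0.096). *Etfb* had 3 counts over all libraries and was the single member left out by the filter on low counts. Of its exon bases, 96.1% lie inside the spans of *Gm44816* and *Gm45233*, introns included. Of the 50-base words in its transcripts, 44.8% also occur in other genes. Reads of *Etfb* may have been lost there, but whether this accounts for its count was not tested. Its level was therefore not read from this count.

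The acyl-CoA synthetases serve both arms, since activation precedes oxidation as well as lipid synthesis. *Acsl4*, which prefers arachidonic acid, was the most abundant, at 43.2 CPM per kb of exon, with a log2 fold change of -0.052 (SE 0.076). *Acsl3* was the single member with every MCT2 KO sample below every MCT2 CO sample, at 42.1, 41.8 and 40.2 CPM in MCT2 CO and 39.96, 39.4 and 37.7 CPM in MCT2 KO. The gap between the groups was under 1 CPM, and the log2 fold change of *Acsl3* was -0.085 (SE 0.076), with an unadjusted p of 0.297. *Acsl1* and *Acsl5* had log2 fold changes of 0.094 (SE 0.16) and 0.068 (SE 0.15), with overlapping groups. Of the exon bases of *Acsl5*, 76.9% lie inside the span of *Zdhhc6*, introns included, but only 4.78% of the 50-base words in its transcripts occur in other genes. Whether reads of *Acsl5* were lost was not tested.

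The 3 genes of de novo synthesis had log2 fold changes on both sides of 0, and the interval of each included 0. *Fasn*, fatty acid synthase, was at 304, 407 and 325 CPM in MCT2 CO and 328, 318 and 335 CPM in MCT2 KO. MCT2 CO replicate 2 was the highest, and the other 5 mice lay between 304 and 335 CPM. The log2 fold change of *Fasn* was -0.079 (SE 0.12), with an interval from -0.36 to 0.20. *Acly*, ATP citrate lyase, which supplies cytosolic acetyl-CoA, had a log2 fold change of 0.10 (SE 0.091) and *Acaca*, acetyl-CoA carboxylase, one of 0.070 (SE 0.075). The unadjusted p values of these 3 genes lay between 0.283 and 0.528. Of the 50-base words in the transcripts of *Acaca*, 30.4% also occur in other genes, mainly *Gm5182* and *Gm42553*, and how reads that match several genes were counted is not given in the sources used here.

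Of the 7 desaturases and elongases, 2 had a log2 fold change above 0 and 5 below, and the groups overlapped in every one. *Scd2*, a stearoyl-CoA desaturase, had the highest level of all members, 99.5 CPM per kb of exon, and was at 484, 567 and 605 CPM in MCT2 CO and 516, 526 and 564 CPM in MCT2 KO. The log2 fold changes of *Scd1* and *Scd2* were -0.019 (SE 0.12) and -0.044 (SE 0.11). *Elovl6*, which elongates palmitate to stearate, had the lowest log2 fold change of the synthesis genes, -0.25 (SE 0.20), but its values spread from 40.9 to 66.6 CPM in MCT2 CO and from 37.6 to 54.1 CPM in MCT2 KO. MCT2 CO replicate 3 and MCT2 KO replicate 2, the libraries that stand apart on the principal components, held the highest *Elovl6* value of each group. *Fads1* and *Fads2*, the delta-5 and delta-6 desaturases of polyunsaturated fatty acids, lie near each other on chromosome 19 and had log2 fold changes of 0.020 (SE 0.079) and -0.14 (SE 0.11). *Elovl1* and *Elovl5* had log2 fold changes of 0.028 (SE 0.083) and -0.11 (SE 0.098).

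*Dgat1* and *Dgat2* encode enzymes, unrelated in sequence, that make the last bond of triglycerides. *Dgat1* was at 48.8, 49.8 and 42.2 CPM in MCT2 CO and 48.3, 36.3 and 52.98 CPM in MCT2 KO and *Dgat2* at 14.7, 13.7 and 11.7 CPM in MCT2 CO and 16.3, 12.9 and 15.8 CPM in MCT2 KO. MCT2 KO replicate 2 was the lowest of its group in both. The log2 fold changes were -0.036 (SE 0.15) and 0.16 (SE 0.14), and neither interval excluded 0.

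The arms were then compared within each mouse. The mean log2 CPM of the 15 oxidation genes was 5.20, 5.20 and 5.16 in MCT2 CO mice 1 to 3 and 5.36, 5.43 and 5.36 in MCT2 KO mice 1 to 3, so that all MCT2 KO mice were above all MCT2 CO mice. The mean log2 CPM of the 10 synthesis genes was 6.99, 7.18 and 7.18 in MCT2 CO and 7.07, 7.09 and 7.08 in MCT2 KO. Here the MCT2 KO mice lay close together, between MCT2 CO replicate 1 and the other two MCT2 CO mice. Oxidation minus synthesis was -1.79, -1.98 and -2.02 on the log2 scale in MCT2 CO (-1.93 ± 0.12, SD, n = 3) and -1.71, -1.66 and -1.72 in MCT2 KO (-1.70 ± 0.032, SD, n = 3). The groups did not overlap and differed by 0.23, with MCT2 KO minus MCT2 CO at 0.20 for the oxidation genes and -0.038 for the synthesis genes. No p is given, since the members were chosen with earlier results known.

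**Figure D3:**
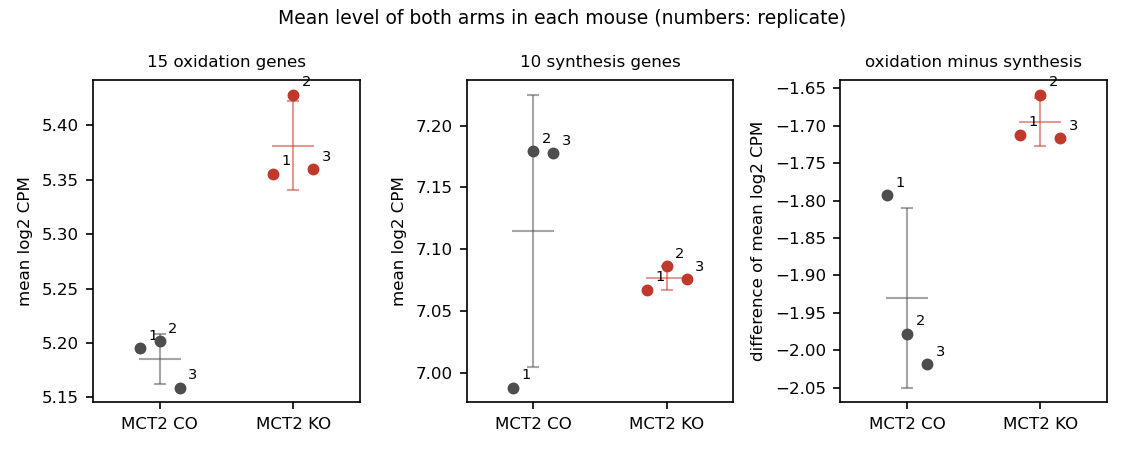
Mean log2 CPM of the 15 oxidation genes (left) and the 10 synthesis genes (middle) and their difference (right) in each mouse, with bars for the mean ± SD and a number for the replicate; the y axes do not start at 0. The MCT2 KO mice lie above the MCT2 CO mice at left and right, and inside their range in the middle.

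The difference between the arms was smaller without the libraries that stand apart. Without MCT2 KO replicate 2 the median log2 fold change of the oxidation genes was 0.12, and without both this library and MCT2 CO replicate 3 it was 0.12, against 0.19 with all 6. Oxidation minus synthesis then differed by 0.22 and 0.17. The 4 genes *Cpt1a*, *Slc25a20*, *Acadm* and *Acaa2* had an unadjusted p under 0.05 in both of these fits, with *Ech1* as the fifth in place of *Acadvl*. The median of the synthesis genes changed sign with single libraries, to 0.029 without MCT2 CO replicate 2 and 0.025 without MCT2 CO replicate 3.

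Markers of other cells were measured beside these results. The summed level of the 12 macrophage markers was 5694 to 7610 CPM in MCT2 CO and 6815 to 10779 CPM in MCT2 KO, and all 11 tested had a log2 fold change above 0, with a median of 0.27. The 7 fibroblast markers summed to 2020 to 3315 CPM in MCT2 CO and 1683 to 1795 CPM in MCT2 KO, and *Col3a1*, *Dcn* and *Lum* were lower in every MCT2 KO sample. In MCT2 CO replicate 3, *Col3a1* was at 2028 CPM and the macrophage marker *Csf1r* at 875 CPM. All levels given here are therefore those of a mixed preparation and not of macrophages alone. The 10 neutrophil markers summed to 83.3 to 103 CPM in MCT2 CO and 69.6 to 186 CPM in MCT2 KO, and 6 of the 8 tested were higher in every MCT2 KO sample, while *Ly6g* stayed at or under 0.12 CPM.

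Most of the neutrophil sum was *Csf3r*, at 92.99, 94.3 and 70.9 CPM in MCT2 CO and 119.95, 41.1 and 118 CPM in MCT2 KO, whereas *S100a8*, *S100a9*, *Mmp8*, *Ngp*, *Ltf* and *Retnlg* were the 6 higher in every MCT2 KO sample. Of the 10 adipocyte markers, 8 were at or under 1 CPM in every library, with *Adipoq* at no more than 0.23 CPM, and the 8 skeletal muscle markers summed to no more than 12.3 CPM. The summed level of B-cell markers was 20.3 to 22.7 CPM in MCT2 CO and 8.13 to 24.6 CPM in MCT2 KO, that of T and NK cells 16.5 to 28.998 and 6.05 to 39.8 CPM, and that of dendritic cells 40.9 to 51.2 and 23.8 to 58.03 CPM. Endothelial markers summed to 90.8 to 96.4 and 79.1 to 132 CPM, and epithelial markers to 13.997 to 21.01 and 18.7 to 33.6 CPM. Most of the epithelial sum was *Cdh1*, and 4 of the 6 epithelial markers were at or under 1 CPM in every library. The part of these cells in the results was not tested. In such bulk samples, fewer cells of a type and less RNA per cell cannot be told apart.

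The transcriptional regulators lay mostly below 0. Of the 6, 1 had a log2 fold change above 0 and 5 below, none had an unadjusted p under 0.05, and the groups overlapped in all. Per kb of exon, *Rxra* (17.96 CPM per kb), the shared partner of the PPARs, and *Ppard* (11.8), the most abundant PPAR here, were well above *Pparg* (3.91), *Ppargc1b* (1.33), *Ppara* (1.003) and *Ppargc1a* (0.582). *Ppargc1a* and *Ppargc1b* encode the PGC-1 coactivators of mitochondrial genes.

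*Ppard* was at 82.3, 90.8 and 97.2 CPM in MCT2 CO and 93.1, 84.9 and 83.7 CPM in MCT2 KO, a log2 fold change of -0.047 (SE 0.090). *Rxra* was at 87.1, 97.95 and 109.8 CPM in MCT2 CO and 107, 90.4 and 96.8 CPM in MCT2 KO, a log2 fold change of -0.0055 (SE 0.11) whose sign changed with the scaling of the libraries. The intervals ran from -0.26 to 0.16 for *Ppard* and from -0.25 to 0.24 for *Rxra*. *Ppara*, the PPAR of fatty acid oxidation in liver, was low, at 3.84, 4.23 and 3.91 CPM in MCT2 CO and 3.65, 3.84 and 3.62 CPM in MCT2 KO, with a log2 fold change of -0.11 (SE 0.16).

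*Pparg*, the PPAR of lipid storage and of alternatively activated macrophages, varied most between mice. It was at 15.01, 10.5 and 7.49 CPM in MCT2 CO and 15.6, 4.42 and 16.3 CPM in MCT2 KO. MCT2 KO replicate 2 was the lowest of all mice and the other two MCT2 KO mice the highest, so that its log2 fold change of 0.13 (SE 0.46) had an interval from -0.93 to 1.18. Left out in turn, single mice moved the value between -0.14 and 0.53. *Ppargc1a* was at 3.74, 3.73 and 5.04 CPM in MCT2 CO and 3.06, 3.78 and 3.66 CPM in MCT2 KO, with a log2 fold change of -0.25 (SE 0.20), and *Ppargc1b* at 6.004, 5.92 and 4.55 CPM in MCT2 CO and 5.996, 3.78 and 5.62 CPM in MCT2 KO, with one of -0.10 (SE 0.22). *Ppara*, *Ppargc1a* and *Ppargc1b* had 630 to 861 counts over all libraries, the fewest of the members tested.

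**Figure D4:**
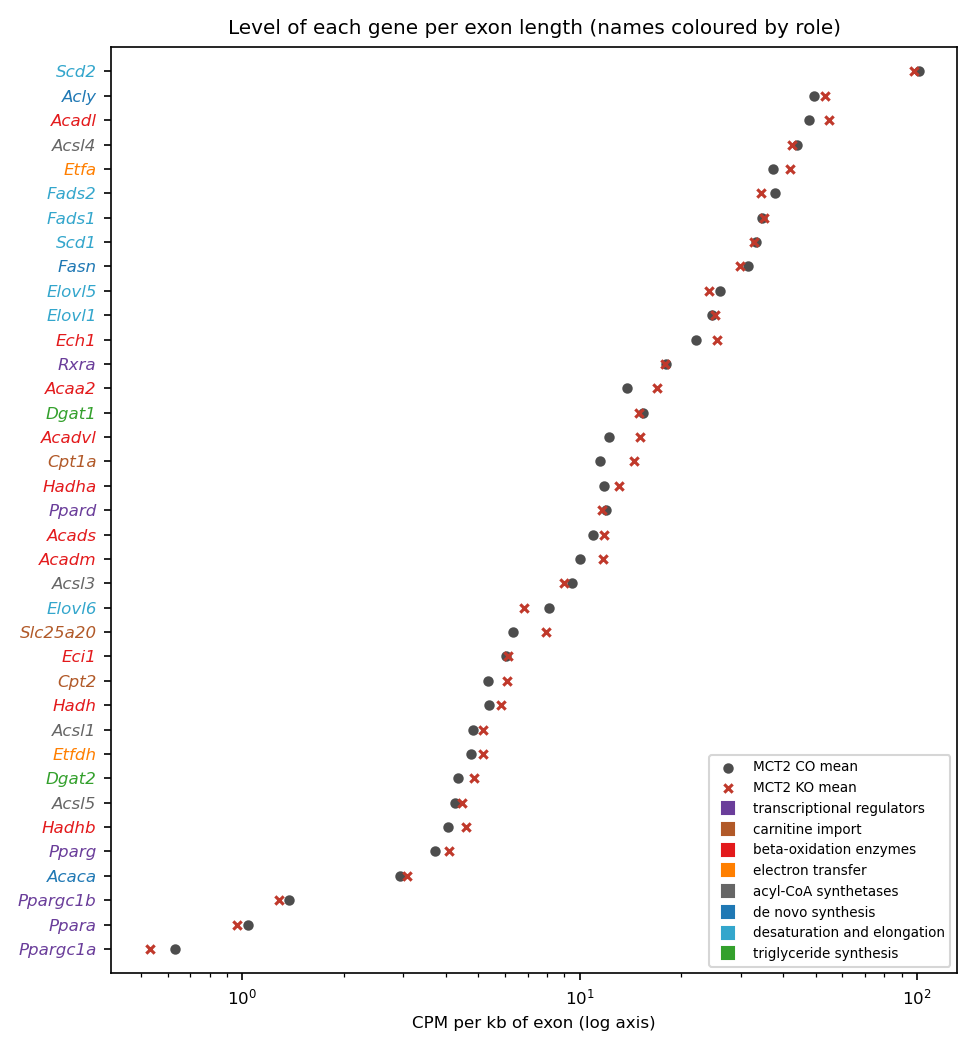
Mean level of the 37 members tested in CPM per kb of exon (x axis, log scale), with MCT2 CO as dots and MCT2 KO as crosses, ordered by the mean of all samples and with names coloured by role. *Scd2* is highest at 99.5 CPM per kb and *Ppargc1a* lowest at 0.58, and the crosses of the oxidation genes lie to the right of their dots.

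PPAR and RXR bind together to a direct repeat of the half-site AGGTCA with 1 base between the copies. This repeat (AGGTCANAGGTCA, both strands, with at most 2 mismatches) was sought in the RefSeq promoters (GRCm38.p6) from 250 bases before to 50 bases after each annotated transcript start, of which a gene can have several. It was in 3.86% of all 32851 windows, and in 4 of the 36 windows of the 31 members that have one, among them 2 of 15 oxidation genes and 1 of 7 synthesis genes. The 4 matches are shown with 8 bases on either side and the match in capitals, because they are the places in these windows where the letters of such an element occur. They are written on the strand of the gene, and in *Elovl1* and *Etfa* the repeat reads on the opposite strand. The windows shown for *Rxra* and *Elovl1* are those of alternative starts inside the gene.
Slc25a20, chr9:108662134-108662162, plus strand: ctgaatgtAGGTGAAAGGTCGgcggagcc
Etfa, chr9:55512300-55512328, minus strand: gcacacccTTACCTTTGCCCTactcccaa
Elovl1, chr4:118429598-118429626, plus strand: ctaggcatTGACCTGTGGCCTggacccac
Rxra, chr2:27709209-27709237, plus strand: ctgagtaaTGGTCATAGGCCAgtgggtgg
The match in *Slc25a20*, one of the oxidation genes with an unadjusted p under 0.05, begins at base 7 of the transcript and has 2 mismatches, as have those of *Etfa* and *Rxra*. The match in *Elovl1* has 1 mismatch, which 0.554% of all windows reach. A match is a description of letters and not a binding site, and elements outside these windows were not sought.

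The other genes of the pathway were examined as 7 lists with 107 genes, of which 88 were tested. Like the members, these lists were drawn up with earlier results of these data known. By edgeR 0 of these were called, 8 had an unadjusted p under 0.05 with higher levels in MCT2 KO and 2 with lower levels, and by DESeq2 1 was called, *Fabp5*. The 8 of 88 stand against 3.77% of all genes tested, and the 2 of 88 against 5.6%. Every MCT2 KO sample was above every MCT2 CO sample in 13 of the 88, against 7.07% of all genes tested, and below in 2, against 8.77%. The lists of oxidation again lay mostly above 0. Of 18 other mitochondrial oxidation genes tested, 14 had a log2 fold change above 0, with a median of 0.14, and of 11 peroxisomal genes 10 had, with a median of 0.13.

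Of the mitochondrial genes, *Mut*, methylmalonyl-CoA mutase, which feeds the end product of odd-chain oxidation into the citric acid cycle, was at 20.1, 19.5 and 18.3 CPM in MCT2 CO and 21.97, 26.3 and 23.1 CPM in MCT2 KO. All MCT2 KO samples were above, with a log2 fold change of 0.30 (SE 0.10) and an adjusted p of 0.457 by edgeR. *Echs1*, the enoyl-CoA hydratase of short chains, was noted after its values were seen, at a log2 fold change of 0.26 (SE 0.085) and an unadjusted p of 0.0145. *Acot2*, a mitochondrial thioesterase that splits acyl-CoA, went the other way, at 7.004, 7.96 and 8.92 CPM in MCT2 CO and 6.58, 6.14 and 6.59 CPM in MCT2 KO, with a log2 fold change of -0.31 (SE 0.14) and an adjusted p of 0.558. *Ehhadh*, the bifunctional enzyme of peroxisomes, was low, at 1.001, 1.23 and 1.24 CPM in MCT2 CO and 2.60, 1.69 and 1.25 CPM in MCT2 KO. Its log2 fold change was 0.67 (SE 0.31), and MCT2 KO replicate 3 was barely above the highest MCT2 CO sample.

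The list with the highest median was that of genes known as targets of PPARs. With all 6 libraries, all 8 tested of 13 listed had a log2 fold change above 0, from 0.23 (*Acot1*) to 1.07 (*Fabp5*). The median was 0.44, and 3 had an unadjusted p under 0.05 by edgeR. *Fabp5*, a fatty acid binding protein, was at 22.1, 19.3 and 15.9 CPM in MCT2 CO and 38.5, 51.8 and 29.8 CPM in MCT2 KO. No samples overlapped, and the log2 fold change of *Fabp5* was 1.07 (SE 0.21), with an adjusted p of 0.370 by edgeR and 0.0012 by DESeq2. *Plin2*, which coats lipid droplets, was at 219, 226 and 184 CPM in MCT2 CO and 248, 263 and 341 CPM in MCT2 KO. Its groups did not overlap, with a log2 fold change of 0.44 (SE 0.14) and an adjusted p of 0.438 by edgeR.

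*Angptl4*, a secreted inhibitor of lipoprotein lipase, was noted after its values were seen. It was at 53.9, 52.6 and 50.5 CPM in MCT2 CO and 51.7, 110.02 and 83.2 CPM in MCT2 KO, so that MCT2 KO replicate 1 lay among the MCT2 CO samples and MCT2 KO replicate 2 was the highest. Its log2 fold change was 0.64 (SE 0.23), with an unadjusted p of 0.0247 and an adjusted p of 0.488 by edgeR. The samples of *Cd36*, *Ucp2*, *Fabp4*, *Pdk4* and *Acot1* overlapped between the groups. MCT2 KO replicate 2, which stands apart on the second axis, held the highest MCT2 KO value of *Fabp5*, *Angptl4*, *Cd36*, *Fabp4* and *Pdk4*. It did not in *Plin2*, *Ucp2* and *Acot1*. *Fabp4* was at 3.27, 2.88 and 7.79 CPM in MCT2 CO and 4.65, 9.67 and 4.58 CPM in MCT2 KO. No median of this list is given without that library. *Ucp3*, *Vnn1*, *Cyp4a14* and *Fgf21* did not pass the filter on low counts and were at or under 0.32 CPM in every library. The sums of macrophage, fibroblast, neutrophil and endothelial markers given above stand beside these values as well. *Cd36* and *Fabp4* were highest of each group in MCT2 CO replicate 3 and MCT2 KO replicate 2. So were the endothelial markers *Cdh5*, *Emcn* and *Cldn5*, whereas *Pecam1* and *Kdr* were lowest there and *Tek* was highest only in MCT2 CO replicate 3. The part of these cells was not tested.

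**Figure D5:**
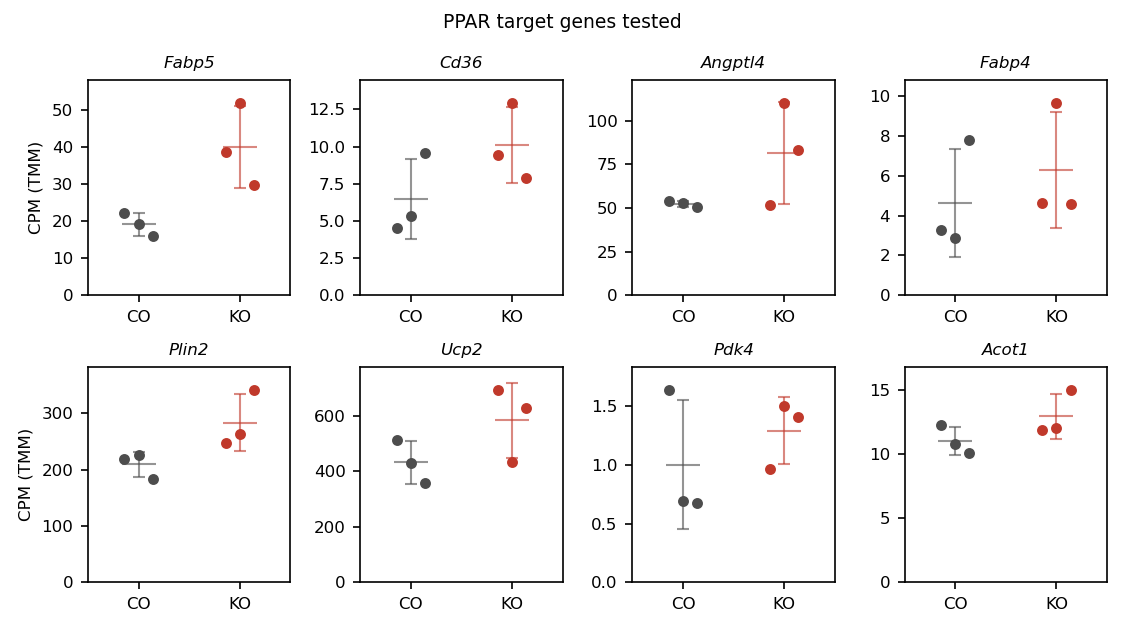
CPM (y axis, from 0) of the 8 PPAR target genes tested, 1 panel per gene in the order of their log2 fold change, with 3 MCT2 CO (grey) and 3 MCT2 KO (red) mice as points and the mean ± SD as bars. The groups separate in *Fabp5* and *Plin2* and overlap in the other 6.

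The partners and cofactors of PPARs lay on both sides of 0, with 4 of 12 tested above it and a median of -0.042. *Ep300*, a histone acetyltransferase, had every MCT2 KO sample below every MCT2 CO sample, at 226, 240.1 and 229 CPM in MCT2 CO and 221, 199.95 and 223 CPM in MCT2 KO and a log2 fold change of -0.11 (SE 0.083). Of 13 lipogenic regulators tested, 7 lay above 0, with a median of 0.022. *Srebf1*, which drives fatty acid synthesis, had a log2 fold change of 0.022 (SE 0.12). *Srebf2*, which drives cholesterol synthesis, and *Insig1*, which holds the SREBPs back and is itself a target of them, were like *Srebf1* noted after their values were seen, with log2 fold changes of -0.30 (SE 0.12) and -0.33 (SE 0.13) and unadjusted p values of 0.0422 and 0.0409. Their groups overlapped, and their adjusted p values by edgeR were 0.525 and 0.524.

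Of 16 other enzymes of synthesis and elongation tested, 7 lay above 0, with a median of -0.027. *Hacd4* and the mitochondrial reductase *Mecr*, both noted after their values were seen, had an unadjusted p under 0.05, with log2 fold changes of 0.25 (SE 0.10) and 0.26 (SE 0.098). Of 10 other genes of glycerolipid synthesis tested, 6 lay above 0, with a median of 0.075. *Lpin1*, whose product is both a phosphatidate phosphatase and a coactivator of PPARs, was at 35.7, 36.3 and 30.4 CPM in MCT2 CO and 44.02, 40.5 and 46.03 CPM in MCT2 KO. Every MCT2 KO sample was above every MCT2 CO sample, with a log2 fold change of 0.35 (SE 0.10), an unadjusted p of 0.00817 and an adjusted p of 0.426 by edgeR.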

How the data were processed

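Bulk RNA-seq of CD11b+ tumor cells from 3 MCT2 CO and 3 MCT2 KO mice was analysed. Per the labels and the methods, the authors made poly-A libraries with a stranded kit, aligned the reads to GRCm38 with STAR 2.7.11b and deposited raw counts per gene from featureCounts 2.1.1, with no normalization and no pooling. The annotation, strand setting and treatment of multiply mapped reads are not given in the sources used here. The positions in the table are those of GENCODE M21 for 2.15% of 25594 shared identifiers, whereas 98.1% have the same span length, so positions are given from GENCODE M21 on GRCm38. Where exons lie inside another gene's span, introns included, reads may have been lost.

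The deposited counts were analysed with R 4.3.3 and edgeR 4.0.16. Low counts were removed with filterByExpr. A gene was kept with 15 counts in total and a level matching 10 counts at the median library size in at least 3 libraries. The remaining genes were scaled by TMM and compared by the quasi-likelihood test without covariates, with Benjamini–Hochberg adjustment over the 13485 genes kept. A call required an adjusted p up to 0.05 together with a log2 fold change of 0.58 or more in either direction. The mean log2 CPM used a prior count of 2. Levels were divided by the union of exon lengths where genes are compared. Single genes were also compared by exact two-sided permutation tests (smallest p 0.1). Simulated counts covered 13390 genes, with 200 changed by 2 on the log2 scale. At an adjusted p up to 0.05 alone, the edgeR fit recovered 91% of these, and 5.21% of the genes passing were false. The members differed by no more than 0.34 on the log2 scale, and the share recovered was not measured for changes of that size.

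The members and all gene lists were chosen with earlier results of these data known. The text names every member, *Slc16a7*, and of the wider lists the called genes and up to 5 with the highest and 5 with the lowest log2 fold change among those whose groups do not overlap; all other genes of the wider lists that are named were chosen after their values were seen. The values of 1 gene of the wider lists are not reported here. *Mut* carries no symbol of that name in the table and was matched by identifier. Alternatives were DESeq2 1.42.0, limma-voom (limma 3.58.1), other scalings, other filters, a replicate block, other compositions of the arms, and each mouse left out. The libraries differed from one another by far more than sampling noise. The labels number the libraries as replicates, which are taken here as separate mice. The p-values set the difference between the groups against the spread between these replicates.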

Additional observations from a re-analysis of the deposited data

How the results depend on the processing

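No member was called under any of the 15 alternatives fitted, and the smallest adjusted p of a member ranged from 0.189 (DESeq2 on the filtered genes) to 0.820 (without MCT2 KO replicate 3). At least 14 of the 15 oxidation genes lay above 0 under each alternative, with *Eci1* as the exception, and 24 of the 37 members kept their sign under every one. *Slc16a7* passed the threshold under DESeq2, on all genes (-1.04) and on the filtered genes (-1.05), and ranged from -1.30 to -0.85 with each mouse left out. Deviations of same-numbered mice from their group means correlated at 0.22, -0.25 and -0.16. With 3 libraries per group these values cannot decide whether the numbers pair the mice, and the main fit used no pairs. A replicate block left 4 members at an unadjusted p under 0.05 in place of 5 and 0 called, and moved *Pparg* to -0.0038. With 1 mouse left out, 11 to 17 of 37 members did not overlap between the groups, against 9 with all mice, while the share over all genes tested was 22.1% to 31.7%, against 15.8%. The median of the oxidation genes was 0.12 to 0.21. Without both MCT2 CO replicate 3 and MCT2 KO replicate 2, chosen after seeing the data, 20 members did not overlap (40.3% of all genes tested), the median was 0.12, and the log2 fold changes of *Ppard* (0.030), *Rxra* (0.14), *Scd2* (0.040) and *Dgat1* (0.038) turned positive. Without the overlapped genes *Acadvl* and *Etfdh*, also chosen after seeing the data, the median of the other 13 was 0.19. *Rxra* turned to 0.0065 by DESeq2 on all genes, 0.0012 by DESeq2 on the filtered genes, 0.00125 with DESeq2 size factors and 0.00076 without the filter, and *Pparg* to -0.12 by limma-voom. With each mouse left out, signs changed in *Acsl1* (-0.013 to 0.26), *Acsl5* (-0.058 to 0.21), *Dgat1* (-0.15 to 0.11), *Eci1* (-0.046 to 0.090), *Elovl1* (-0.023 to 0.078), *Fads1* (-0.018 to 0.040), *Fasn* (-0.16 to 0.058), *Ppard* (-0.11 to 0.011), *Pparg* (-0.14 to 0.53), *Ppargc1b* (-0.22 to 0.081), *Rxra* (-0.085 to 0.081), *Scd1* (-0.11 to 0.078) and *Scd2* (-0.13 to 0.027). The cause of these changes was not tested. Of the members tested, depth limits *Ppara*, *Ppargc1a* and *Ppargc1b* most.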
